A study of Homo sapiens with 12 samples.

Results

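CLCA4 and CLCA2 belong to the chloride channel accessory (CLCA) family, and their RNA was followed on 12 Illumina bead arrays of UM-UC14 and UM-UC9, human cell lines from urothelial (bladder) cancer. The 2 genes were taken as every probe that the array annotation gives to them. CLCA4 was picked on its fall with FABP4 shRNA in these same arrays, and CLCA2 as its relative. Each gene had 1 probe (ILMN_1679176 for CLCA4 and ILMN_1803236 for CLCA2), of 47323 probes and 20046 named genes in all. A probe was tested if it was detected (detection p below 0.05, where p is the share of negative control probes at least as bright) on at least 3 of the 12 arrays. CLCA4 passed this filter and CLCA2, detected on 2 arrays, did not, so that CLCA4 is 1 of 13293 tested genes.

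The UM-UC14 cells carried a short hairpin RNA (shRNA) against FABP4 or a non-targeting shRNA. The UM-UC9 cells were given rosiglitazone, an insulin-sensitizing agonist of PPARG, at 1 µM for 24 hours, or were untreated controls. FABP4 encodes a cytoplasmic fatty acid carrier and is a known PPARG target gene. Each of the 4 groups held 3 arrays, and the sources used here do not say whether these were separate cultures, so that p-values measure only a spread between arrays that may be technical. The number of shRNA sequences and of clones is not given either, so off-target effects of a hairpin and effects of FABP4 loss cannot be told apart.

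CLCA proteins are secreted or membrane-bound glycoproteins of epithelia that cut themselves with a built-in metalloprotease domain. They were first described as calcium-activated chloride channels and are now regarded as regulators of such channels. CLCA1, the goblet cell member, raises the amount of the calcium-activated channel ANO1 (TMEM16A) at the cell surface. CLCA2 is found in stratified epithelia, where it is a target gene of the p53 family and is tied to differentiation and cell adhesion. CLCA4 is found in the lining of the gut, the bladder and other mucosae, and low CLCA4 has been associated with tumour progression in several carcinomas.

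In the RefSeq annotation of GRCh38.p14, used here for gene order alone, the family lies in 1 cluster on chromosome 1 in the order CLCA2, CLCA1, CLCA4 and the pseudogene CLCA3P. The long noncoding RNA gene CLCA4-AS1, named as antisense to CLCA4, overlaps the end of CLCA4 and the whole of CLCA3P. The array annotation names 1 probe each for CLCA1 and CLCA4-AS1 and lists none for CLCA3P. The promoters of the 2 genes are shown because they are where the transcripts measured here start. The bases are the 250 before the start of each gene on the plus strand, from RefSeq (GRCh38.p14), at chr1:86546828-86547077 for CLCA4 and chr1:86423921-86424170 for CLCA2, with motif matches in capitals.
CLCA4: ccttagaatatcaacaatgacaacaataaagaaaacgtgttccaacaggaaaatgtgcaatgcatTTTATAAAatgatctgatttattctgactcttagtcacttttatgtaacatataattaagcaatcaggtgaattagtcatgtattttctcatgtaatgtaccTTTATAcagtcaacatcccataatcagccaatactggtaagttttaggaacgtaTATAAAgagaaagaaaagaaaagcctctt
CLCA2: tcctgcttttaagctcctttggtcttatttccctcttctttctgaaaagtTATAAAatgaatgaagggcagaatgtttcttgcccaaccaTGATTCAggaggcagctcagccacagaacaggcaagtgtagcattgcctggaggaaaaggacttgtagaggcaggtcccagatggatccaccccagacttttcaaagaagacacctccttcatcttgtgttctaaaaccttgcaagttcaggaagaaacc
The motifs were searched on both strands: the TATA box (TATAAA), a nuclear receptor half-site (AGGTCA), the AP-1 site (TGANTCA) and the paired core of the p53 family site. TATAAA matched the CLCA4 window at 4 places, of which 2 overlap, and the last of them begins 29 bases before the gene. In the CLCA2 window TATAAA matched once, beginning 200 bases before the gene, and TGANTCA matched once, 160 bases before it. Of 35116 promoter windows of this length, 10.7% hold TATAAA and 6.57% hold TGANTCA. The half-site AGGTCA, held by 12.1% of windows, is not among the letters of these 2 windows. The p53 family core pair was searched in a single spelling, with A then T in the middle of both cores. That spelling, held by 0.296% of windows, is in neither window. Other spellings were not searched, so the absence of a p53 family site cannot be read from this. The CLCA2 window does hold a pair at the same spacing whose first core has T and T in the middle, overlapping the AP-1 match. The CLCA4 window is poor in G and C (30.4%, against a median of 58% over all windows), and 1.75% of windows are poorer. The CLCA2 window holds 44.8% G and C. These matches describe letters and show no binding.

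On an array, 44.1% to 47.3% of the probes were detected, and the median raw intensity was 52.8 to 62.6. Raw intensities were background corrected, quantile normalized and put on a log2 scale. A probe counted as detected from a raw intensity of 55.6 to 65.3, depending on the array, which is 4.77 to 4.88 on the normalized log2 scale. The non-targeting array of replicate 1 stood apart from the other 2 of its group. Its Pearson r across the tested genes was 0.989 to the averaged FABP4 shRNA arrays and 0.988 to the average of non-targeting replicates 2 and 3, while each of the other 11 arrays reached at least 0.992 with the rest of its group. For UM-UC14, CLCA4, CLCA2 and the gene list counts are therefore given with and without this array. Over all tested genes 14.2% rose and 12.2% fell with FABP4 shRNA, 21.2% and 18.2% without that array, and 7% and 7.63% when it was the sole control. FABP4 itself averaged 10.33 ± 0.19 with FABP4 shRNA and 14.04 ± 0.10 with non-targeting shRNA, and 14.66 ± 0.05 with rosiglitazone and 10.96 ± 0.13 in UM-UC9 controls (normalized log2 intensity; SD, n = 3 each). Of 13 markers of epithelial and urothelial identity, 12 were detected on all 3 arrays of either UM-UC14 group and 11 on those of either UM-UC9 group. UPK3A was detected in neither line, and UPK1A was not detected in UM-UC9.

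CLCA4 RNA was well above background in UM-UC14 cells with non-targeting shRNA, near the detection limit with FABP4 shRNA, and not detected in UM-UC9 with or without rosiglitazone. Its raw intensity was 66.8, 68.6 and 65.3 with FABP4 shRNA (replicates 1 to 3), against 158, 337 and 392 with non-targeting shRNA. The groups did not overlap. The FABP4 shRNA arrays lay close together just above their detection limits of 62.4, 60.1 and 61.0, while the non-targeting arrays differed widely among themselves.

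**Figure D1:**
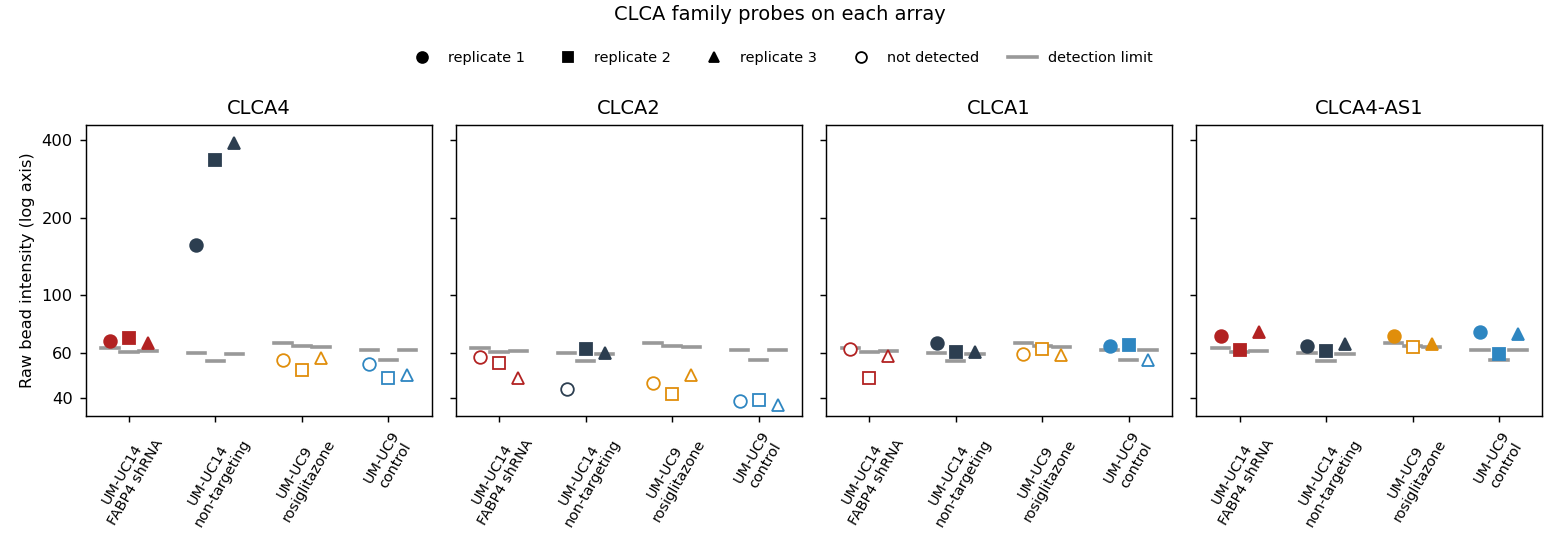
Raw bead intensity (log axis) of the CLCA4, CLCA2, CLCA1 and CLCA4-AS1 probes on each of the 12 arrays, by group. Filled points were detected, open points were not, and grey bars mark the detection limit of each array. CLCA4 reaches 158 to 392 on the non-targeting arrays. The other 3 probes stay near or below the limit in all groups, with CLCA2 far below it in UM-UC9.

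On the normalized log2 scale CLCA4 averaged 5.04 ± 0.08 with FABP4 shRNA and 7.99 ± 0.90 with non-targeting shRNA (SD, n = 3 each). The difference of -2.95, a 7.75-fold lower level, was the fall of rank 5 among the 13293 tested genes. CLCA4 was chosen for this fall, and no test is given for it. In the same contrast 26.3% of tested genes were called changed (limma, Benjamini-Hochberg adjusted p below 0.05) and 36.5% had groups that did not overlap, which is background here and no measure of CLCA4. Fewer cells with CLCA4 RNA and less of it per cell cannot be told apart in bulk samples.

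The size of the CLCA4 difference depended on the background correction. The ratio of mean raw intensities, with nothing subtracted, was 4.41. Without background correction the log2 difference was -2.15 (4.42-fold), and the authors' processed values gave the same -2.15. An offset of 50 in place of 16 gave -2.13 (4.38-fold), and median scaling gave -2.83. All of these point downward, and the fold lay between 3.80 and 11.1 over the alternatives run, the extremes being those that use or drop non-targeting replicate 1.

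**Figure D2:**
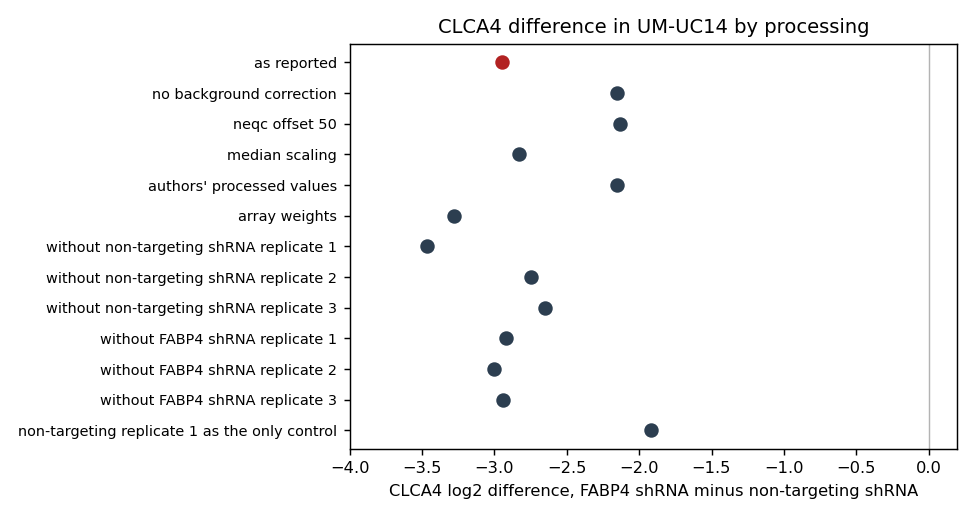
Log2 difference of CLCA4 in UM-UC14 (horizontal; FABP4 shRNA arrays minus non-targeting arrays) as reported and under alternative processing or with single arrays left out. Each point is 1 fit, and all lie between -3.47 and -1.92.

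Within the non-targeting group CLCA4 read 6.96 on replicate 1, 8.40 on replicate 2 and 8.61 on replicate 3 (normalized log2). Replicate 1 minus the mean of the others was -1.55 log2 units, a 2.92-fold gap between arrays of 1 group. The SD of CLCA4 over these 3 arrays was among the largest of the array, exceeded by 42 of 13293 tested genes (0.316%). On the FABP4 shRNA arrays its SD was exceeded by 63.9% of genes. Without replicate 1 the difference was -3.47 (11.1-fold), and with replicate 1 as the sole control array, a setting added once the data had been seen, it was -1.92 (3.80-fold). FABP4 did not show this gap: it read 13.94 on non-targeting replicate 1 and 14.13 and 14.06 on replicates 2 and 3. The same difference between replicate 1 and the others was -0.16 for FABP4.

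**Figure D3:**
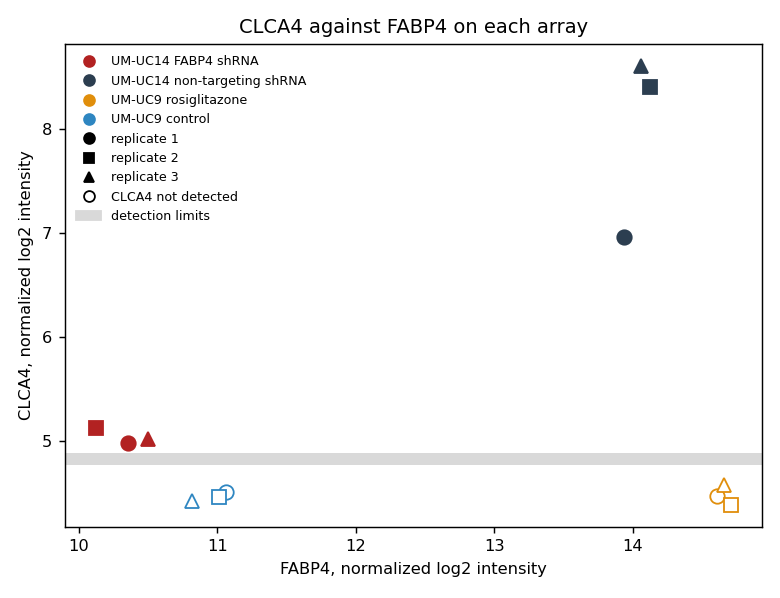
Normalized log2 intensity of CLCA4 (vertical) against FABP4 (horizontal) on each of the 12 arrays. Open points are arrays on which CLCA4 was not detected, and the grey band spans the detection limits. The rosiglitazone arrays reach FABP4 values of 14.61 to 14.71, above the non-targeting arrays, with CLCA4 not detected.

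In UM-UC9 the CLCA4 probe was not detected on any of the 6 arrays. Its raw intensity was 56.0, 51.4 and 57.2 with rosiglitazone, against 54.0, 48.0 and 49.2 in controls, all below the limits of their arrays. On the normalized scale it averaged 4.48 ± 0.10 with rosiglitazone and 4.46 ± 0.04 in controls (SD, n = 3 each), with overlapping groups. In this contrast 36% of tested genes were called and 53.9% had groups that did not overlap. The fit gave CLCA4 an adjusted p of 0.97 (limma), which carries no information on a change, because the probe passed the filter through the UM-UC14 arrays alone and both UM-UC9 groups read background. No fold is given, and the readings do not show that CLCA4 is absent. Rosiglitazone did raise FABP4 in the same cells, by 3.69 log2 units (SE 0.11, adjusted p = 7.7e-11 by limma), to a level above that of UM-UC14 with non-targeting shRNA.

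The order of CLCA4 levels was UM-UC14 with non-targeting shRNA, UM-UC14 with FABP4 shRNA, and then both UM-UC9 groups, which read background and have no order. Against the normalized detection limits of the UM-UC9 control arrays, CLCA4 in UM-UC14 was at least 9.01-fold higher with non-targeting shRNA and at least 1.16-fold higher with FABP4 shRNA. The non-targeting bound depends on the setting: it was 4.79 without background correction, 4.7 with an offset of 50, 4.41 with non-targeting replicate 1 alone and 12.9 without that array. The ratio of mean raw intensities, non-targeting shRNA over UM-UC9 control, was 5.86. All of these are descriptions, since the UM-UC14 arrays are those that chose the gene. In all, 354 tested genes were detected on all 6 UM-UC14 arrays and on none of the 6 UM-UC9 arrays. Of these, CLCA4 among them, 74 were lower with FABP4 shRNA and 93 were higher, where 12.2% of all tested genes were lower and 14.2% higher.

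CLCA2 was near or under the detection limit on all 12 arrays. Its raw intensity was 57.8, 54.6 and 48.0 with FABP4 shRNA, all undetected, against 43.3, 61.8 and 59.7 with non-targeting shRNA. Non-targeting replicates 2 and 3 were the 2 arrays on which it was detected, with limits of 55.6 and 59.1, and replicate 1 was the lowest UM-UC14 reading. The groups overlapped. On the normalized scale CLCA2 averaged 4.52 ± 0.11 with FABP4 shRNA and 4.77 ± 0.37 with non-targeting shRNA (SD, n = 3 each), a difference of -0.25 that was -0.46 without non-targeting replicate 1 and turned to 0.17 against that array alone. No fold is given, because the non-targeting mean does not reach the detection limit of the FABP4 shRNA arrays. On the 2 arrays with detected CLCA2, CLCA4 was also at its highest.

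In UM-UC9 the raw intensity of CLCA2 was 45.9, 41.5 and 49.2 with rosiglitazone, against 39.0, 39.3 and 37.5 in controls. All 6 readings were far below their detection limits of 56.1 to 65.3, and values there have no order. The probe failed the filter and was not tested. From readings below background a fall of CLCA2 could not have been seen.

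CLCA1 was likewise close to the limit. It read 62.3, 48.0 and 58.3 with FABP4 shRNA, undetected on all 3 arrays, against 65.5, 60.2 and 60.2 with non-targeting shRNA, detected on all 3. The non-targeting mean was at least 1.15-fold above the FABP4 shRNA arrays by the bound, and the difference of -0.37 (SE 0.14) did not pass (adjusted p = 0.060, limma). The adjusted p was 0.10 without non-targeting replicate 1, and CLCA1 passed without UM-UC9 control replicate 2 or 3 (0.043 at the lowest). In UM-UC9 CLCA1 was detected on 0 of 3 arrays with rosiglitazone and on 2 of 3 in controls, with a log2 fold change of -0.25 (adjusted p = 0.17).

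CLCA4-AS1 did not show the CLCA4 pattern. It read 69.7, 61.7 and 72.0 with FABP4 shRNA, against 63.9, 60.7 and 64.7 with non-targeting shRNA, with overlapping groups. The log2 fold change was 0.02 (SE 0.12, adjusted p = 0.92, limma), and 0.01 without non-targeting replicate 1. It was detected in UM-UC9 too, on 2 of 3 rosiglitazone arrays and 3 of 3 control arrays, where CLCA4 was not.

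Among the 4 protein-coding genes on either side of the cluster, 4 of 8 fell and 0 rose with FABP4 shRNA. Over all tested genes 12.2% fell and 14.2% rose. CCN1, a secreted matricellular protein gene, fell by 0.77 log2 units (SE 0.09, adjusted p = 9.6e-05), and its call held under every alternative run. The other 3, COL24A1 (-0.35), the centriolar gene ODF2L (-0.32) and SH3GLB1 (-0.36), which encodes a membrane-curving protein of autophagy, lost their calls against non-targeting replicate 1 alone (adjusted p = 0.31, 0.14 and 0.11). COL24A1 kept its call in 10 of 21 alternatives, ODF2L in 16 of 23 and SH3GLB1 in 17 of 23. COL24A1 was lost without background correction and in the authors' values, and ODF2L and SH3GLB1 with median scaling. COL24A1 was also close to background, at 4.82 with FABP4 shRNA and 5.18 with non-targeting shRNA, where the detection limits were 4.77 to 4.88. With rosiglitazone CCN1 (-0.89), ZNHIT6 (-0.65) and ODF2L (-0.44) fell, and LMO4 rose (0.64), where 19% of all tested genes fell and 17% rose.

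The 5 tested genes with the profile most like CLCA4, by Pearson correlation of normalized log2 intensity over the 12 arrays, were ARTN, IFIT2, RAPGEF3, MMP13 and CP. Their r was 0.983 to 0.989. The arrays fall into 4 groups and the correlations rest on the non-targeting arrays being high, so they carry no p, and both the fall of these genes with FABP4 shRNA and their lower reading on non-targeting replicate 1 follow from how they were picked. ARTN, a GDNF family ligand, read 4.62, 4.71 and 4.73 with FABP4 shRNA, undetected, against 5.71, 6.03 and 6.06 with non-targeting shRNA. The interferon-induced gene IFIT2 read 8.13, 8.10 and 8.22 with FABP4 shRNA, against 9.48, 9.96 and 10.36 with non-targeting shRNA. RAPGEF3, a cAMP-activated exchange factor for RAP proteins, read 5.09, 4.71 and 4.63 with FABP4 shRNA, against 5.65, 6.85 and 6.81 with non-targeting shRNA.

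MMP13 is a collagenase and CP encodes the plasma ferroxidase ceruloplasmin. In UM-UC9, ARTN, RAPGEF3, MMP13 and CP were detected on 0 of 6 arrays, and IFIT2 was detected on all 6, at 7.63 to 7.77 with rosiglitazone and 7.33 to 7.61 in controls. The log2 differences of the 5 genes with FABP4 shRNA ranged from -1.79 to -0.86. ARTN and CP were undetected on the FABP4 shRNA arrays, and RAPGEF3 and MMP13 were detected on 1 of 3. The differences of these 4 genes are limited by background, so their size cannot be set against that of CLCA4.

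**Figure D4:**
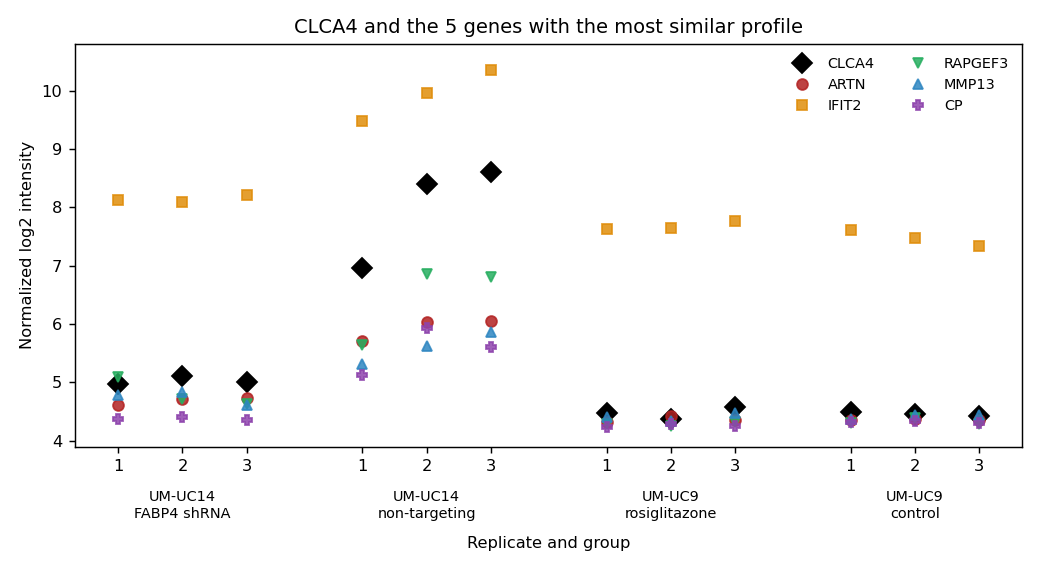
Normalized log2 intensity of CLCA4 and of the 5 genes with the most similar profile on each of the 12 arrays, by group and replicate. All 6 genes are highest on the non-targeting arrays, with replicate 1 the lowest of those.

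ANO1, the calcium-activated chloride channel, shared the cell line pattern of CLCA4 but not its fall. It averaged 8.88 ± 0.05 with FABP4 shRNA and 8.51 ± 0.27 with non-targeting shRNA (SD, n = 3 each; log2 fold change 0.37, SE 0.15, adjusted p = 0.083 by limma). The adjusted p was 0.030 against non-targeting replicate 1 alone, where the log2 fold change was 0.64, and the test was also passed with an offset of 50, with median scaling and without non-targeting replicate 3. Without non-targeting replicate 1 the log2 fold change was 0.23 (adjusted p = 0.22). The other 2 ANO1 probes, not used in the test, differed by 0.53 and 0.47. On all 3 probes, which read the same arrays, the groups did not overlap, as was so for 36.5% of all tested genes. In UM-UC9 the tested ANO1 probe was detected on 0 of 3 rosiglitazone arrays and 1 of 3 control arrays. Of the 9 tested anoctamins and bestrophins, 0 rose and 1 fell with FABP4 shRNA, where 14.2% of all tested genes rose and 12.2% fell. The 1 that fell was BEST4, detected on 0 of 3 arrays with FABP4 shRNA and on 3 of 3 with non-targeting shRNA and at least 1.21-fold lower. In UM-UC9 it was detected on 2 control arrays. BEST4 thus needed the non-targeting arrays, where it is high, to pass the filter, and no p is given. Without non-targeting replicate 1, 0 rose and 3 fell, where 21.2% and 18.2% of all tested genes did. With detection p below 0.01 as the filter none fell. With rosiglitazone 3 rose and 1 fell, where 17% of all tested genes rose and 19% fell. ANO6, a phospholipid scramblase, rose by 0.71 (SE 0.13, adjusted p = 0.00073 by limma). ANO3, also among the 3, was detected on 3 of 3 rosiglitazone arrays and 0 of 3 control arrays and was at least 1.5-fold higher. In UM-UC14 it was detected on 1 array. ANO3 thus passed the filter only through the group where it is high, so no p is given. ANO8 (0.40) kept its call in 15 of 23 alternatives, and median scaling was among those that lost it. ANO7 (-0.42) kept its call in 20 of 22 and lost it without control replicate 3 or rosiglitazone replicate 1.

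Among 17 other tested chloride channel genes, 3 rose and 1 fell with FABP4 shRNA, where 14.2% of all tested genes rose and 12.2% fell. The median log2 fold change of the 17 was 0.01, against 0.019 over all tested genes. As many rose and fell without non-targeting replicate 1, where 21.2% and 18.2% of all tested genes did. The volume-regulated channel subunits LRRC8B and LRRC8A rose by 0.77 (adjusted p = 0.00029) and 0.60 (adjusted p = 0.0028). LRRC8A did not pass against non-targeting replicate 1 alone (adjusted p = 0.062). The lysosomal exchanger CLCN7 fell by 0.35 log2 units and lost its call with median scaling, with UM-UC14 fitted alone and without FABP4 shRNA replicate 2. CLCN6 rose by 0.29 and lost its call with UM-UC14 fitted alone, without non-targeting replicate 2 or without FABP4 shRNA replicate 1 or 3. With rosiglitazone 3 rose and 3 fell, where 17% and 19% of all tested genes did (median -0.02, against -0.017 over all tested genes). CLIC3 rose by 1.68 (adjusted p = 1.1e-05) and CLIC4 by 0.80 (adjusted p = 0.0012), both of the chloride intracellular channel family, and CLCN6 by 0.39. LRRC8A (-0.57), LRRC8B (-0.52) and LRRC8E (-0.42) fell. CFTR, the cAMP-gated chloride channel, was near its detection limit in all groups and passed in neither contrast.

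**Figure D5:**
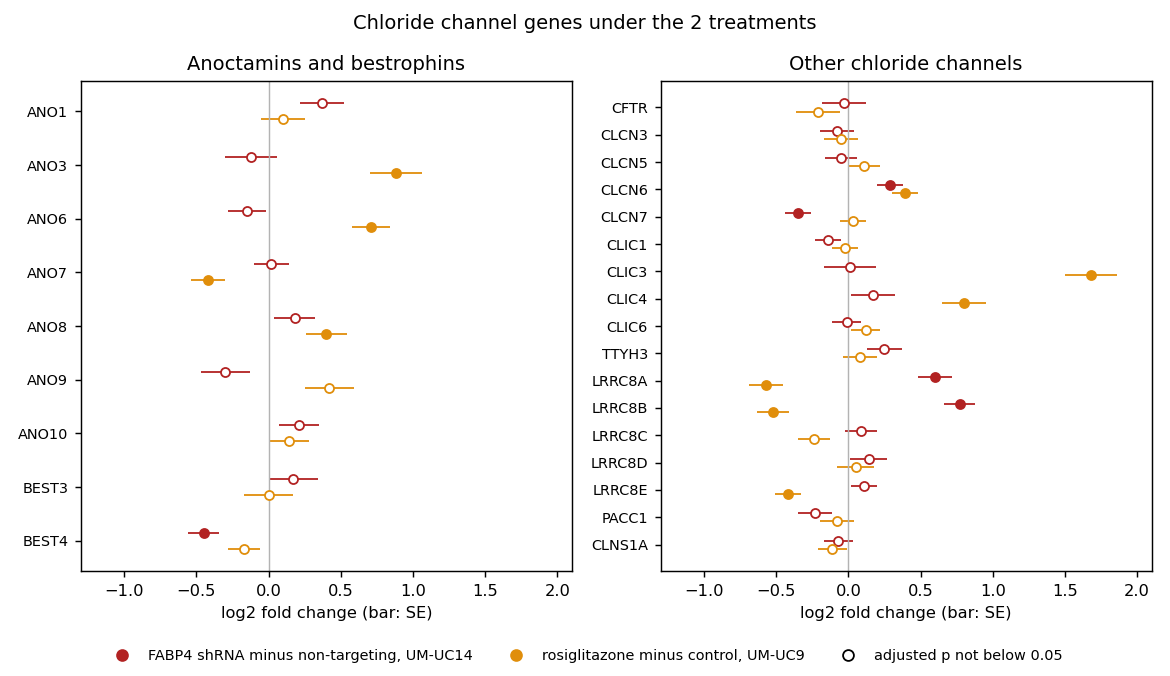
Log2 fold change (bars: SE of the model) of the tested anoctamins and bestrophins and of other chloride channel genes, with FABP4 shRNA in UM-UC14 and with rosiglitazone in UM-UC9. Filled points passed an adjusted p below 0.05. LRRC8A and LRRC8B are higher with FABP4 shRNA (0.60 and 0.77) and lower with rosiglitazone (-0.57 and -0.52).

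Among 13 tested chloride cotransporters, anion exchangers and their kinases, 2 rose and 2 fell with FABP4 shRNA, near the all-gene shares of 14.2% and 12.2%. Without non-targeting replicate 1, 3 rose and 3 fell, where 21.2% and 18.2% of all tested genes did. With rosiglitazone 1 rose and 4 fell, where 17% of all tested genes rose and 19% fell. The sulphate and anion exchanger SLC26A2 rose by 0.77 with FABP4 shRNA (adjusted p = 0.001) and had a log2 fold change of -0.74 with rosiglitazone (adjusted p = 0.00062). The cotransporter SLC12A2 (0.35) kept its call in 18 of 23 alternatives, the kinase STK39 (-0.38) in 19 of 23 and WNK1 (-0.47) in 22 of 23. UM-UC14 fitted alone was among those that lost SLC12A2 and STK39, and median scaling lost STK39 and WNK1. Against non-targeting replicate 1 alone SLC12A2 differed by 0.30 and STK39 by -0.36. Of 5 tested regulators and partners of CLCA2, 0 rose and 2 fell with FABP4 shRNA, with or without non-targeting replicate 1. They were CDH1 (-0.48, lost with median scaling) and PTK2 (-0.38, and -0.06 against non-targeting replicate 1 alone). CDH1 kept its call in 22 of 23 alternatives and PTK2 in 15 of 23. Median scaling and UM-UC14 fitted alone were among those that lost PTK2. With rosiglitazone 0 rose and 3 fell, among them the adhesion protein MPZL2 (-1.16, SE 0.13, adjusted p = 1.4e-05) and the tight junction protein TJP1 (-0.60, SE 0.11, adjusted p = 0.00077).

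Of 14 tested markers of stratified and squamous epithelium, the tissue kind in which CLCA2 is known, 4 rose, 1 fell and 9 did not pass with FABP4 shRNA, where 14.2% of all tested genes rose and 12.2% fell. Without non-targeting replicate 1, 8 rose and 1 fell, where 21.2% and 18.2% of all tested genes did. CALML3 averaged 7.56 ± 0.06 with FABP4 shRNA and 5.12 ± 0.81 with non-targeting shRNA (normalized log2; SD, n = 3 each). It was detected on 3 of 3 FABP4 shRNA arrays, on 1 of 3 non-targeting arrays and on none in UM-UC9. CALML3 thus passed the filter only through the group where it is high, so no p is given, though it counts among the 4. KRT14 averaged 6.72 ± 0.08 with FABP4 shRNA and 4.69 ± 0.52 with non-targeting shRNA (same scale and n). On the non-targeting arrays KRT14 was detected on 1 of 3, so that mean is near background. KRT5 was detected on 3 of 3 arrays with FABP4 shRNA and on 0 of 3 with non-targeting shRNA, and the bound on its increase was at least 2.83-fold. The 1 that fell was SPRR1A (-0.32, and -0.13 against non-targeting replicate 1 alone). The summed linear intensity of the 14 was 27700 to 29000 with FABP4 shRNA and 19000 to 20200 with non-targeting shRNA. The keratin KRT13 alone made up 92.5% to 93.3% of it with FABP4 shRNA and 89.8% to 93.7% with non-targeting shRNA, and the other 13 summed to 1940 to 2070 with FABP4 shRNA and 1280 to 2040 with non-targeting shRNA. With rosiglitazone 4 rose and 7 fell, where 17% and 19% of all tested genes did. The largest log2 fold changes with the drug were those of SPRR2A (-2.69), KRT5 (-2.1) and KRT14 (1.61). KRT4, detected on the 3 UM-UC9 control arrays and on no others, was at least 2.02-fold lower with the drug.

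Of 12 tested markers of epithelial and urothelial identity, 0 rose and 4 fell with FABP4 shRNA, where 14.2% and 12.2% of all tested genes did, while their summed intensity was 62800 to 68100 with FABP4 shRNA and 60900 to 69500 with non-targeting shRNA. The 4 were CDH1, the transcription factor GATA3 (-0.78) and the uroplakins UPK1B (-0.45) and UPK2 (-0.40). The last 3 lost their calls against non-targeting replicate 1 alone, with log2 fold changes of -0.28, -0.18 and -0.16. GATA3 kept its call in 22 of 23 alternatives, UPK1B in 17 of 23 and UPK2 in 9 of 23. Without non-targeting replicate 1, 1 marker rose and 6 fell, where 21.2% and 18.2% of all tested genes did. With rosiglitazone 4 rose and 2 fell, where 17% and 19% of all tested genes did. UPK1B rose by 1.42 with the drug (adjusted p = 1.7e-06, limma). PPARG, the receptor of rosiglitazone, fell by 0.46 log2 units with the drug on the tested probe, its brightest (adjusted p = 0.0065), and the other 3 probes differed by -0.71, -1.07 and -1.20. With FABP4 shRNA the tested probe had a log2 fold change of -0.21 (adjusted p = 0.20), which passed without non-targeting replicate 1 (-0.34, adjusted p = 0.011) and with array weights.

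Some markers of other cell types also moved with FABP4 shRNA. Over all tested genes 14.2% rose and 12.2% fell, or 21.2% and 18.2% without non-targeting replicate 1. Of 7 tested blood and endothelial markers 0 rose and 2 fell, with or without that array. They had a summed intensity of 2240 to 2510 with FABP4 shRNA and 3410 to 4610 with non-targeting shRNA, of which CD68 alone made up 85.9% to 88.5% with FABP4 shRNA and 89.9% to 91.6% with non-targeting shRNA, while CD3E, KDR, PTPRC and VWF were not detected in UM-UC14. The 2 were CD68 (-0.88) and the cadherin CDH5 (-1.70), which did not pass against non-targeting replicate 1 alone (-0.47, adjusted p = 0.077). Of 4 tested fibroblast markers 2 rose and 0 fell, with or without non-targeting replicate 1. Their sum was 707 to 751 with FABP4 shRNA and 387 to 559 with non-targeting shRNA, most of it LUM (74.7% to 77.4% with FABP4 shRNA and 63.4% to 79.8% with non-targeting shRNA), with COL1A2, COL3A1, DCN, FAP, PDGFRB and THY1 not detected. Of 4 tested adipocyte markers 0 rose and 1 fell, and 0 rose and 2 fell without non-targeting replicate 1. Their sum was 1310 to 1400 with FABP4 shRNA and 1890 to 2440 with non-targeting shRNA, most of it CFD (82.7% to 83.1% with FABP4 shRNA and 88.1% to 91% with non-targeting shRNA), with ADIPOQ and PLIN1 not detected. With rosiglitazone 2 blood and endothelial markers rose and 1 fell, 1 fibroblast marker rose and 0 fell, and 1 adipocyte marker rose and 1 fell, where 17% and 19% of all tested genes did. The part of these markers in the CLCA4 difference was not tested.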

How the data were processed

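Per the labels' protocols, an Illumina kit made biotinylated cRNA from total RNA of each sample. The authors' deposited raw table holds the intensity of 47323 probes, not background subtracted, each with a detection p-value in steps of 1 in 770. The deposited processed values are log2 intensities, which lay within 0.0106 of the raw intensities after quantile normalization and log2. The sources used here do not give the scanner software or any filter.

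From the raw intensities, limma 3.58.1 in R 4.3.3 gave background-corrected, quantile-normalized log2 values (neqc, offset 16). A named gene was represented by its brightest kept probe, and the 4 group means were estimated in 1 model of all 12 arrays (lmFit and eBayes, 8 residual degrees of freedom), with Benjamini-Hochberg adjustment over 13293 genes. The fit was tested on simulated data. Gene names came from the array annotation, and 30074 of the 30113 probes with 1 named gene matched RefSeq, whose promoter sequences (GRCh38.p14) are shown. The number of arrays limits the precision.

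CLCA4, CLCA2 and the 10 gene lists were chosen with earlier results of these data known. Genes named by rule were the CLCA family, ANO1, FABP4, PPARG, up to 4 called genes per list with the largest change in a contrast, and the 5 genes most correlated with CLCA4; 2 further genes of the rule are not analysed here. CLCA4-AS1, the flanking genes and the other genes named were added after their values were seen. Alternatives covered background correction, scaling, the detection filter, array weights, a replicate block and single arrays left out. A fold against an undetected group is a bound, taken from the detection limits of its arrays.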

Additional observations from a re-analysis of the deposited data

How the results depend on the processing

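The fall of CLCA4 with FABP4 shRNA kept its direction under all alternatives, from -3.47 to -2.65 with 1 array left out, and it moved by more than the array spread only with non-targeting replicate 1 as the sole control array (-1.92). Its difference between UM-UC14 with non-targeting shRNA and UM-UC9 controls was 3.53 (3.22 to 4.05 with 1 array left out), 2.52 without background correction and in the authors' values, 2.39 with an offset of 50 and 2.50 with non-targeting replicate 1 alone; the UM-UC9 side is below background. The rosiglitazone difference of CLCA4 (0.02) ranged from -0.0323 to 0.0641 with 1 array left out, turning to -0.00311 without control replicate 3 and to its lowest without rosiglitazone replicate 3, all below background.

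CLCA2, near or below background throughout, had a rosiglitazone difference of 0.05 (0.01 to 0.07 with 1 array left out), which was 0.122 without background correction and 0.121 in the authors' values. Its differences with 1 array left out ranged from -0.46 to -0.09 for FABP4 shRNA and from 0.38 to 0.74 between the control groups, and with non-targeting replicate 1 alone they were 0.165 and 0.122. Detection on all 12 arrays left neither gene. Neither gene has a second probe, and slide was not run as a block because the headers name none.

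Calls with FABP4 shRNA numbered 3502 (2377 to 5248 with 1 array left out), 1779 with UM-UC14 fitted alone and 1945 with non-targeting replicate 1 alone. Calls with rosiglitazone numbered 4789 (3590 to 5811). With the replicate number as a block (replicate block) they were 3247 and 4578 and CLCA4 kept its difference of -2.95. The calls of CLCN6, COL24A1 and UPK2 with FABP4 shRNA were among those lost under this block. Deviations of same-numbered arrays correlated at -0.036 to 0.147, so the numbers do not pair the arrays. Of the other values, 3 changed sign, none past the threshold before or after: ANO1 with rosiglitazone (-0.00733 without control replicate 1, 0.257 at most), CLCA4-AS1 with FABP4 shRNA (-0.0819 without FABP4 shRNA replicate 3, 0.14 at most) and PPARG with FABP4 shRNA (0.0585 with non-targeting replicate 1 alone). The causes were not tested.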
